A study of Mus musculus with 20 samples.

Results

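Collagen genes were followed in medullary thymic epithelial cells of Aire KO and Aire WT mice of 3 strains. The members were all genes with a probe set whose only symbol was Col, a number, the letter a and a number, such as Col1a1, and each gene was read from whichever of its probe sets averaged highest on the 20 arrays. This gave 42 collagen genes of 18193 genes in all, made up of 11 fibrillar collagens, 6 basement membrane collagens (the type IV chains) and 25 other collagens. The arrays compared KO with WT mice on the B6 background (3 KO and 3 WT), the BALB background (4 KO and 4 WT) and the NOD background (3 KO and 3 WT). All were males aged 3 to 4.5 weeks. Each array held the RNA of cells sorted from 1 thymus, which were CD45-, G8.8+, Ly51 intermediate and MHC class II high. The labels do not describe the Aire allele, its carrier strain or the number of backcrosses, and say nothing of litters. All values are log2 of the deposited intensity, so 1 unit is a 2-fold difference. A gene was called when its adjusted p in the limma fit over all probe sets was under 0.05.

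Collagens are trimers of alpha chains wound into a helix. Fibrillar collagens form the cross-banded fibres of bone, tendon, skin and cartilage, type IV collagen forms the sheet of basement membranes, and the remaining types decorate fibrils, form beaded filaments or short networks, anchor epithelia or span the cell membrane. Most are textbook products of fibroblasts, chondrocytes or muscle, while epithelia contribute type IV, type VII and type XVII chains. Medullary thymic epithelial cells display genes of many other tissues to developing T cells, and Aire is the transcriptional regulator known for switching on a large share of these.

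The Aire probe set read 10.53 to 12.04 in KO mice and 9.31 to 11.45 in WT mice, a difference of 0.74 ± 0.14 averaged over strains (SE, adjusted p = 0.00104, limma). The sources used here do not say which part of the gene was deleted, so this probe set is no check of the genotype and KO stands for mice labelled KO. The summed intensity of 11 medullary epithelial markers was 14.69 to 15.11 in KO mice and 14.56 to 15.04 in WT mice on the log2 scale. Epcam, the epithelial adhesion molecule used in the sort, averaged 11.43 to 11.95 in the 3 KO groups and 11.66 to 12.25 in the 3 WT groups. Ptprc, which encodes CD45, still read 8.77 to 9.55 in the KO group means and 9.52 to 10.05 in the WT group means, although the sorted cells were gated as CD45-. No detection calls were used, so no marker could be called absent. Array medians lay between 86.3 and 90.9 in linear intensity. B6 KO mice 2 and 3 and B6 WT mouse 2 had a low gap between the 3' and 5' Gapdh control probe sets, which read 1.68, 1.84 and 1.90 there and 2.15 to 3.04 on the BALB and NOD arrays. B6 WT mouse 1 lay beyond the other end at 3.76. Results in B6 are therefore also given without the 3 low-gap arrays, and the counts without all 4.

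Averaged over the 3 strains, 21 of the 42 collagen genes differed between KO and WT mice. Of these, 19 were lower in KO mice (45.2% of the collagen genes) and 2 were higher. Among all 18193 genes 16.6% were called lower and 9.7% higher. The median over the collagen genes was -0.20, with 28 of 42 below 0, while the median over all genes was 0.01. At a fall of at least 2-fold, 4 collagen genes were called, a class that held 3.57% of all genes. The 4 were Col9a1, Col6a3, Col3a1 and Col4a4. The 2 genes that rose were Col14a1 and Col19a1. With same-numbered mice of a strain as a block 22 collagen genes fell and 4 rose (24.7% and 18.1% of all genes), and with array weights 21 fell and 6 rose (23.2% and 19%). The 21 genes that were not called ranged from -0.26 to 0.41. In bulk samples fewer cells of a type and less RNA per cell cannot be told apart.

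The fibrillar class had the highest share of falls: 7 of 11 fibrillar genes were lower in KO mice (63.6%, median -0.52) and none was higher. Among the type IV chains 3 of 6 were lower (50%, median -0.30). With the multiplexins Col15a1 and Col18a1, which also lie in basement membrane zones, this became 4 of 8. Among the other collagens 9 of 25 were lower (36%, median -0.04) and 2 were higher. Within that mixed class 3 of 5 beaded-filament genes, 2 of 9 fibril-associated (FACIT) genes, 1 of 3 network genes, the anchoring-fibril gene Col7a1, 1 of 4 transmembrane genes and 1 of 2 multiplexins fell, and both genes that rose were FACIT genes. The classes share arrays and were described by counts only, and no test of a difference between classes was made.

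**Figure D1:**
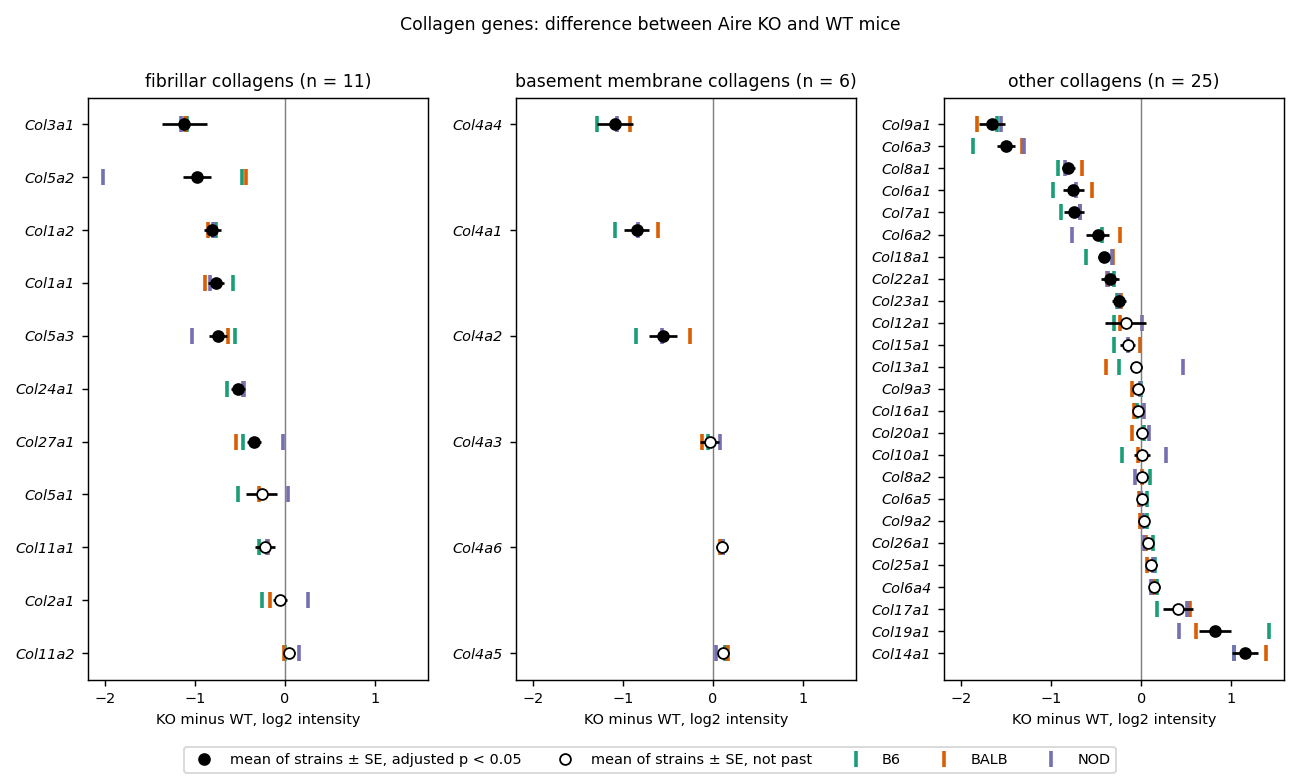
Difference between KO and WT mice (KO minus WT, log2 intensity) for each of the 42 collagen genes, in panels for fibrillar, basement membrane and other collagens. Circles are the mean of the 3 strains with its SE, filled where the adjusted p was under 0.05, and coloured ticks are the B6, BALB and NOD differences. The falls reach -1.66 for Col9a1, the rises 1.15 for Col14a1, and the 3 ticks of Col13a1 lie on both sides of 0.

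Individual mice separated by genotype in many of these genes. In 10 of the 42 collagen genes (23.8%) every KO mouse lay below every WT mouse in each of the 3 strains, which held for 5.56% of all genes. They were Col9a1, Col6a3, Col1a2, Col8a1, Col1a1, Col6a1, Col7a1, Col5a3, Col24a1 and Col18a1. Neither gene that rose had every KO mouse above every WT mouse in all 3 strains (1.62% of all genes did). All 21 called genes had the same sign in the 3 strains. The call averages these same strains, so this agreement is no separate evidence. By the calls within strains, 6 collagen genes passed in all 3, 6 in exactly 2 and 5 in exactly 1. Of those with 2, Col13a1 passed in opposite directions. Another 5 passed the averaged contrast but no single strain. Shares of all genes were not computed for these counts.

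Several of these genes lie side by side, and their promoter windows are printed here because the neighbours moved in opposite directions (Col9a1 and Col19a1), both fell (Col3a1 beside Col5a2), or share one stretch of DNA (Col4a1 and Col4a2). Sequences are from RefSeq, build GRCm38.p6, from 250 bases before to 50 bases after a gene's start. Capitals mark the TATA box (letters TATAAA), the CCAAT box and the GC box (letters GGGCGG), searched on both strands, so that a box on the other strand shows as its reverse complement. Overlapping matches were counted separately. The Col9a1 windows are at chr1:24177360-24177659 and chr1:24194953-24195252 (both + strand), the Col19a1 window at chr1:24587388-24587687 (- strand), the Col3a1 window at chr1:45311288-45311587 (+ strand), the Col4a1 window at chr8:11312777-11313076 (- strand) and the Col4a2 window at chr8:11312555-11312854 (+ strand).
Col9a1, first start: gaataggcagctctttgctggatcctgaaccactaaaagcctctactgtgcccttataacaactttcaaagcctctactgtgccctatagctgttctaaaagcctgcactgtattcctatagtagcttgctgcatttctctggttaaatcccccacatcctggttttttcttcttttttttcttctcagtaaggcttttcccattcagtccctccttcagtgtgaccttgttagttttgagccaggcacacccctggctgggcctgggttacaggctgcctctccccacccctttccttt
Col9a1, second start: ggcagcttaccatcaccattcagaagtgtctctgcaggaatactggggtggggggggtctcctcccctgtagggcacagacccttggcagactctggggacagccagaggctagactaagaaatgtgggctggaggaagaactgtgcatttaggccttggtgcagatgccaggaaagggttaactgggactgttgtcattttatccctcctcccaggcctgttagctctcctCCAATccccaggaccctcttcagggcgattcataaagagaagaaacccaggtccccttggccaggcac
Col19a1: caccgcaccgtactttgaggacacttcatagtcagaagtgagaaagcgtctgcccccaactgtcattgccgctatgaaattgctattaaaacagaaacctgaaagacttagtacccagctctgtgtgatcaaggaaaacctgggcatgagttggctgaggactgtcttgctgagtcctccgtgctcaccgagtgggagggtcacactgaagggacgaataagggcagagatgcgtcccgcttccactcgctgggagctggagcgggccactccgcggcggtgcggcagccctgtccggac
Col3a1: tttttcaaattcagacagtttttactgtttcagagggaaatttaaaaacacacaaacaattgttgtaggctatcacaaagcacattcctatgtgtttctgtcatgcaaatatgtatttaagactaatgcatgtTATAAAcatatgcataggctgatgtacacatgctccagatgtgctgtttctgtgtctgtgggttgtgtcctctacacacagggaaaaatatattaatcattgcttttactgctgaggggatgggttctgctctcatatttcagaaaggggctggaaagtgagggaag
Col4a1: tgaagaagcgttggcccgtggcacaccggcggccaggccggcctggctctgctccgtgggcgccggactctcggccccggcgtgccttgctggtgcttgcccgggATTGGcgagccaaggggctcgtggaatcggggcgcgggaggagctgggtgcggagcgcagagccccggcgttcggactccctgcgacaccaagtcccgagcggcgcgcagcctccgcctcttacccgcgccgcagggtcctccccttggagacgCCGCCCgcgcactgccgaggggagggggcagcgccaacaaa
Col4a2: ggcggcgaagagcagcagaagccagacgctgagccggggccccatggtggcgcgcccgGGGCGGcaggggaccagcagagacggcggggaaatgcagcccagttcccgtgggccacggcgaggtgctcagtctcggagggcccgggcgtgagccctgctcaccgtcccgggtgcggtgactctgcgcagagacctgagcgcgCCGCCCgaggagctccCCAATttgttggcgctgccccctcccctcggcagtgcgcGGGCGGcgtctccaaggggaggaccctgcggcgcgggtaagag

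Both Col9a1 windows are poor in CpG, with 0 and 1 CpG in 300 bases, and their starts lie 17593 bases apart. The Col19a1 window has 16 CpG and none of the 3 motifs, and the Col3a1 window has 0 CpG and 1 TATAAA. The Col4a1 and Col4a2 windows run away from each other and share 78 bases, with 37 and 33 CpG. Of the 42 collagen genes, 33 had a window in the table, 36 windows in all. GGGCGG was in 22 of the 36 (61.1%) and in 35.7% of all 32851 windows, whereas TATAAA was in 5 (13.9%, against 13.6% of all) and CCAAT in 13 (36.1%, against 37.4%). The median GC content was 59.8% in the collagen windows and 52.7% in all windows. A match describes these letters and is no evidence of a bound factor, and none of these windows was measured in the arrays.

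Among the fibrillar collagens, both type I chains fell together. Col1a1 encodes the chain present in pairs in the main collagen of bone, tendon and skin. In B6 it read 6.46, 6.46 and 6.36 in KO mice, against 7.28, 6.60 and 7.13 in WT mice. In BALB the KO mice read 6.60, 6.21, 6.31 and 6.25 and the WT mice 7.25, 7.16, 7.07 and 7.43. In NOD the KO mice read 6.33, 6.52 and 6.59 and the WT mice 7.16, 7.60 and 7.19. No KO mouse reached the lowest WT mouse of its strain, and B6 WT mouse 2 was the lowest WT mouse of all. The averaged difference was -0.77 ± 0.09 (SE, adjusted p = 5.42e-06, limma), a 1.7-fold fall. A second, dim Col1a1 probe set read -0.08 and was not called (adjusted p = 0.607), and the mean of both was -0.42. Its partner Col1a2 averaged 7.32 ± 0.36, 6.91 ± 0.05 and 7.67 ± 0.24 in B6, BALB and NOD KO mice, against 8.09 ± 0.15, 7.77 ± 0.23 and 8.47 ± 0.18 in WT mice (SD). It fell by 0.81 on the log2 scale (adjusted p = 4.5e-06), with differences of -0.77, -0.86 and -0.80 in the 3 strains. Of its other probe sets one also fell, by 0.77, and one read 0.11, and the mean of all 3 was -0.49.

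Col3a1, the type III chain of vessels and skin, had the largest averaged fall of the fibrillar class at -1.12 ± 0.25 (adjusted p = 0.00365, limma) and the widest spread. In B6 it read 6.18, 8.03 and 6.28 in KO mice, against 7.61, 7.96 and 8.18 in WT mice. BALB KO mice read 5.30, 6.72, 5.85 and 6.65 and BALB WT mice 6.74, 7.96, 7.13 and 7.12. NOD KO mice read 5.68, 6.46 and 6.87 and NOD WT mice 7.29, 7.70 and 7.48. B6 KO mouse 2 lay above a pair of WT mice, while the groups did not overlap in BALB or NOD. No single strain passed (adjusted p = 0.172 in B6, 0.113 in BALB and 0.228 in NOD). In a second fit with same-numbered mice of a strain as a block, since their values deviated together in BALB and NOD, those strains passed (0.00806 in BALB and 0.0196 in NOD). A second Col3a1 probe set of low intensity read -0.14 and was not called, and the mean of both was -0.63.

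Of the type V chains, which join type I fibrils and set their width, Col5a2 and Col5a3 were called lower and Col5a1 was not. Col5a2, the neighbour of Col3a1, differed most in NOD, where it read 6.70, 6.21 and 6.03 in KO mice and 8.36, 8.41 and 8.23 in WT mice. That is a 4.05-fold fall (log2 difference -2.02 ± 0.28, adjusted p = 0.000171). In B6 the KO mice read 9.09, 8.38 and 8.90 and the WT mice 9.31, 9.10 and 9.40, and in BALB the KO mice read 7.52, 7.55, 7.64 and 6.78 and the WT mice 7.71, 8.01, 8.39 and 7.09. The differences of -0.48 in B6 and -0.43 in BALB did not pass (adjusted p = 0.362 and 0.369), and BALB did with the block (0.0229). The averaged difference was -0.97 ± 0.16 (adjusted p = 0.000159), and a second Col5a2 probe set also fell, by 0.82. Col5a3 fell by 0.74 averaged (adjusted p = 2.41e-05), with -0.56, -0.63 and -1.04 in B6, BALB and NOD, although a second probe set read 0.02 and the mean of both was -0.36. Col5a1 read -0.26 ± 0.18 and was not called (adjusted p = 0.311), and was with the block (0.0392). Within strains the block gave 0.0374 in B6, whose numbers were not taken as pairs, 0.192 in BALB and 0.938 in NOD.

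The minor fibrillar chains Col24a1 and Col27a1 also fell. Col24a1 read 3.18 to 3.55 in KO mice and 3.55 to 4.16 in WT mice, at the bottom of the scale, where 5% of all values lay below 3.77. Its averaged difference was -0.52 ± 0.08 (adjusted p = 5.6e-05). Col27a1, a cartilage-associated chain, differed by -0.34 ± 0.08 (adjusted p = 0.00338), with strain values of -0.46 (B6), -0.54 (BALB) and -0.02 (NOD). Without the 4 B6 arrays at either end of the Gapdh gap its averaged difference was -0.25 and was no longer called. The cartilage chains Col2a1, Col11a1 and Col11a2 were not called on the probe sets used, at -0.05, -0.22 and 0.05. With the block Col11a1 passed (adjusted p = 0.0191). A dimmer Col11a1 probe set differed by -0.84 (adjusted p = 0.00454), and the mean of both, -0.53, was called (0.00791).

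The type IV chains fell in part. Col4a1 and Col4a2, which assemble together in nearly all basement membranes, are read in opposite directions from one shared promoter region. In B6 Col4a1 read 8.78, 9.07 and 9.19 in KO mice and 9.93, 10.26 and 10.13 in WT mice. BALB KO mice read 8.86, 9.57, 9.66 and 9.64 and BALB WT mice 9.72, 10.11, 10.78 and 9.57. NOD KO mice read 9.35, 9.25 and 9.21 and NOD WT mice 10.08, 10.31 and 9.93. The groups were separate in B6 and NOD, while in BALB the WT mouse 4 lay within the KO range. The averaged difference was -0.85 ± 0.14 (adjusted p = 0.000215), with strain values of -1.09 (B6), -0.61 (BALB) and -0.84 (NOD). Only B6 passed by itself. Without the 3 low-gap arrays its difference was -1.25 and was not called (adjusted p = 0.13). BALB and NOD passed with the block (0.0108 and 0.00481). Col4a2 differed by -0.56 ± 0.15 (adjusted p = 0.0147) and was not called without those 3 arrays (0.0536).

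Col4a4, a chain of the collagen IV network of the kidney filter, showed the largest type IV difference, -1.09 ± 0.20 averaged (adjusted p = 0.000718). In B6 it read 6.16, 6.28 and 6.10 in KO mice and 7.44, 7.73 and 7.24 in WT mice. BALB KO mice read 6.5, 6.45, 6.94 and 8.20 and BALB WT mice 7.77, 7.67, 7.49 and 8.83. NOD KO mice read 5.66, 5.44 and 5.42 and NOD WT mice 6.45, 6.87 and 6.38. The highest KO and the highest WT mouse of BALB carry the same number, 4, and KO mouse 4 lay above 3 of the 4 WT mice. In each of the 7 same-numbered pairs of BALB and NOD the KO mouse was lower. The chains that assemble with it, Col4a3 and Col4a5, read -0.04 and 0.11 and were not called (adjusted p = 0.83 and 0.176). Nor was Col4a6, the neighbour of Col4a5 on the X chromosome, at 0.10 (adjusted p = 0.296). Dimmer probe sets of Col4a3 and Col4a5 differed by -0.51 and -0.55 (adjusted p = 0.00839 and 0.0165), and of the other Col4a4 probe sets one read -0.49 and was called and one read 0.08 and was not. The mean of all Col4a4 probe sets gave -0.50.

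**Figure D2:**
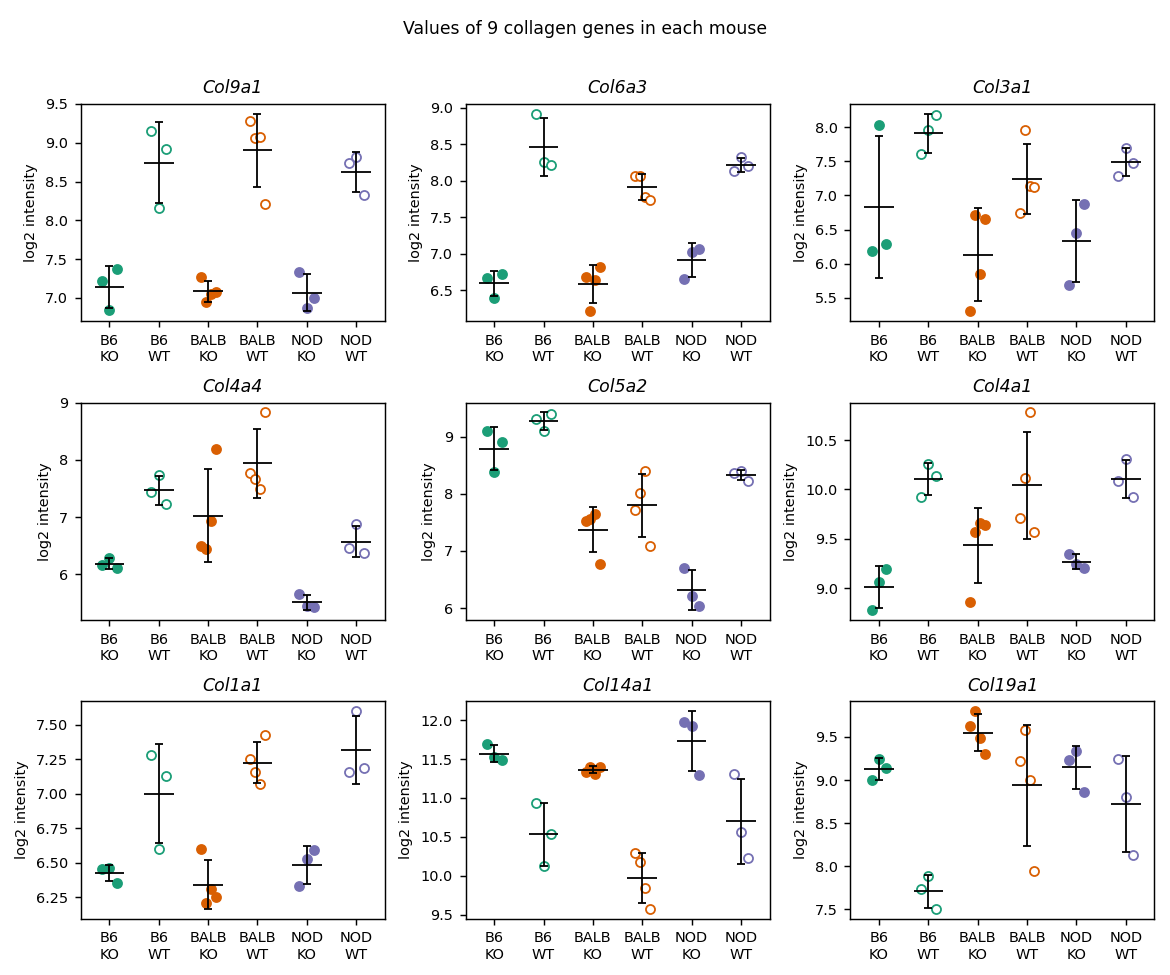
Log2 intensity of 9 collagen genes in each mouse, 1 point per mouse, with the group mean and SD as a bar. KO mice (filled) stand left of WT mice (open) of the same strain. Col9a1 and Col6a3 leave a gap between all KO and all WT mice, Col14a1 is higher in KO mice, and Col4a4 in BALB KO mouse 4 reaches 8.20.

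Among the other collagens the largest fall was that of Col9a1, which encodes a chain of type IX collagen, a FACIT collagen known from the surface of cartilage fibrils. B6 KO mice read 7.21, 6.84 and 7.37 and B6 WT mice 9.16, 8.16 and 8.91. BALB KO mice read 7.27, 6.94, 7.05 and 7.07 and BALB WT mice 9.27, 9.06, 9.07 and 8.22. NOD KO mice read 7.34, 6.87 and 7.0 and NOD WT mice 8.73, 8.81 and 8.33. Every KO mouse lay below every WT mouse of any strain. The averaged difference was -1.66 ± 0.14 (adjusted p = 1.19e-07, limma), a 3.16-fold fall, with -1.60, -1.82 and -1.56 in B6, BALB and NOD. A second Col9a1 probe set read -0.05 (adjusted p = 0.567), so the mean of both was -0.85, and the files do not pair either probe set with one of the windows printed above.

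Col6a3, the largest chain of type VI beaded filaments, fell by 1.5 averaged (SE 0.10, adjusted p = 5.55e-09), or 2.83-fold. B6 KO mice read 6.66, 6.40 and 6.72 and B6 WT mice 8.92, 8.25 and 8.22. The BALB KO mice read 6.69, 6.21, 6.64 and 6.81 and BALB WT mice 8.07, 8.06, 7.78 and 7.74. The NOD KO mice read 6.65, 7.03 and 7.06 and NOD WT mice 8.13, 8.32 and 8.20. The highest KO mouse lay below the lowest WT mouse over all strains. The gene has 1 probe set. Its partner chains fell less: Col6a1 by 0.75 (adjusted p = 0.000117) and Col6a2 by 0.48 (adjusted p = 0.0111), and a second Col6a2 probe set read -0.05, which put the mean of both at -0.27. Col6a4 and Col6a5 were not called, at 0.14 and 0.01 (adjusted p = 0.0997 and 0.884), although Col6a4 passed with the block (0.0464).

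Of the 3 network genes Col8a1 fell. Col8a1, a network collagen of vessels and of the cornea, read 5.0 to 5.53 in KO mice and 5.70 to 6.25 in WT mice. It fell by 0.81 (SE 0.08, adjusted p = 3.27e-07), but its other probe sets read 0.17 and -0.11 and the mean of all 3 gave -0.25. Col7a1, whose product anchors the epidermis to the dermis and is made by keratinocytes, read 6.83 to 7.58 in KO mice and 7.68 to 8.39 in WT mice and fell by 0.75 (SE 0.11, adjusted p = 9.63e-05). Col18a1, the source of endostatin, fell by 0.42 (adjusted p = 4.03e-05) and a second probe set fell by 0.34. Col22a1, known from muscle-tendon junctions, fell by 0.35 (adjusted p = 0.0165) and the transmembrane gene Col23a1 by 0.24 (adjusted p = 0.032). Without the 3 low-gap arrays Col23a1 was no longer called (0.0972). Col17a1, the hemidesmosome collagen of basal epithelium, read 0.41 ± 0.17 and did not pass (adjusted p = 0.102). It was higher in KO mice in 7 of the 7 same-numbered BALB and NOD pairs and passed with the block (0.00188).

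The collagens not yet named stayed close to 0 and were not called. Among FACIT genes Col12a1 read -0.17, Col16a1 -0.03 and Col20a1 0.01. Among network genes Col8a2 and Col10a1, the collagen of growth-plate cartilage, both read 0.01. The multiplexin Col15a1 read -0.15, the transmembrane gene Col25a1 0.11 and Col26a1 0.07. With the block Col15a1 passed (0.0295). Within strains that fit gave adjusted p = 0.0301 in B6, whose numbers were not taken as pairs, 0.927 in BALB and 0.387 in NOD. The SD within groups had a median of 0.201 over the collagen genes and 0.208 over all genes, and it was widest for Col3a1 (0.62) and Col12a1 (0.55).

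Col14a1 and Col19a1 were the 2 collagen genes that rose. Col14a1 encodes a FACIT collagen that binds type I fibrils in skin and tendon. B6 KO mice read 11.69, 11.53 and 11.49 and B6 WT mice 10.94, 10.13 and 10.54. BALB KO mice read 11.33, 11.40, 11.31 and 11.40 and BALB WT mice 10.29, 10.17, 9.85 and 9.57. NOD KO mice read 11.98, 11.93 and 11.29 and NOD WT mice 11.30, 10.56 and 10.23. B6 and BALB groups were separate, and in NOD the lowest KO mouse fell just under the highest WT mouse. The averaged difference was 1.15 ± 0.14 (adjusted p = 7.71e-06), a 2.22-fold rise, with 1.04, 1.39 and 1.03 in B6, BALB and NOD. A second probe set rose by 0.94 and another read 0.11, and the mean of all 3 was 0.73.

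Col19a1, a FACIT collagen found near basement membranes in muscle, lies next to Col9a1 on chromosome 1 with 0 protein-coding genes between them in RefSeq. In B6 it read 9.0, 9.24 and 9.14 in KO mice and 7.74, 7.88 and 7.5 in WT mice. BALB KO mice read 9.62, 9.80, 9.48 and 9.30 and BALB WT mice 9.22, 9.58, 9.0 and 7.95. NOD KO mice read 9.24, 9.34 and 8.86 and NOD WT mice 9.24, 8.80 and 8.13. The groups overlapped in BALB and NOD, where WT mice spread widely. The rise was 0.82 ± 0.17 averaged (adjusted p = 0.00219) and 1.42 ± 0.31 in B6 (adjusted p = 0.00638). Without the 3 low-gap arrays the B6 rise was 1.38 and was not called (0.216). Its other probe sets rose by 0.65 and 0.35. Of the 7 pairs of neighbouring collagen genes, Col3a1 and Col5a2, Col4a1 and Col4a2, and Col6a1 and Col6a2 both fell, Col4a4 fell beside Col4a3, and neither gene was called in Col4a5 and Col4a6 or in Col6a4 and Col6a5.

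Chains of one collagen type did not always change alike. For 17 pairs of chains known to assemble together the log2 ratio was compared between KO and WT mice by an exact two-sided permutation test within strains over 28000 arrangements, whose smallest possible p is 7.14e-05, adjusted over the 17 pairs. This comparison was added after the values were seen and leaves aside the pairing of same-numbered mice. In 7 of the 17 pairs the chains changed unequally. The same 7 passed when the BALB and NOD mice were kept in same-numbered pairs (2560 arrangements, adjusted p = 0.0019 for each), as did Col4a1 and Col4a2 (0.00332). With the mean of each gene's probe sets 12 pairs passed. Col9a1 fell 1.69 further than Col9a2 and 1.62 further than Col9a3 on the log2 scale (adjusted p = 0.000304 for each), both partners lying near 0 (0.03 and -0.04), although the mean of the Col9a3 probe sets, -0.16, was called (0.0358). Col6a3 fell further than Col6a1 by 0.75 (adjusted p = 0.000304) and further than Col6a2 by 1.02 (0.000486), and Col8a1 further than Col8a2 by 0.82 (0.000304). Col8a2 averaged 3.75 to 3.96 in the 6 groups, at the bottom of the scale, where 5% of all values lay below 3.77. Whether a fall of Col8a2 could show there was not tested. Col24a1, with WT group means of 3.75 to 4.01, was called lower by 0.52. Col4a4 fell further than Col4a3 by 1.05 (0.00173) and further than Col4a5 by 1.2 (0.00081). For the type I chains the difference of the changes was 0.04 (adjusted p = 0.738), and for Col4a1 and Col4a2 it was -0.29 (0.086). The Col6a1 and Col6a3 difference is between 2 genes with 1 probe set each, while the Col9a1, Col8a1 and Col4a4 differences are read from the brightest probe set of each gene.

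**Figure D3:**
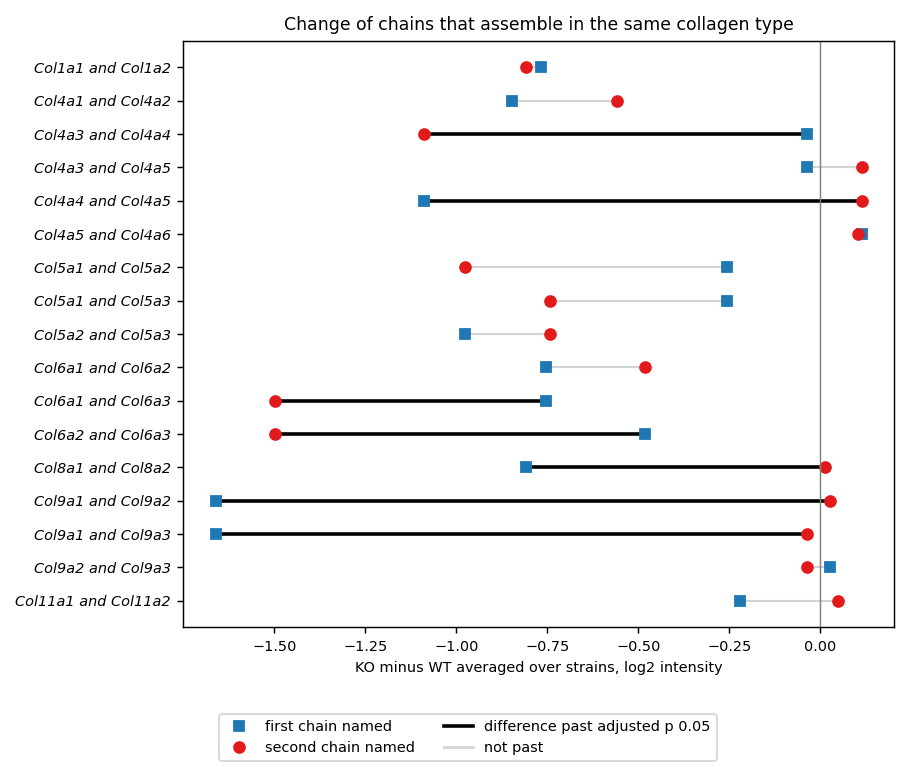
Averaged KO minus WT difference (log2 intensity) of both chains in 17 pairs that assemble in the same collagen type, joined by a dark line where the changes differed at an adjusted p under 0.05 and by a grey line otherwise. The squares are the chain named first. Col9a1 at -1.66 stands far from Col9a2 and Col9a3 near 0, whereas Col1a1 and Col1a2 lie at -0.77 and -0.81.

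Within strains, 12 collagen genes fell and 2 rose in B6 (9.27% and 3.19% of all genes), 11 fell and 1 rose in BALB (7.48% and 2.89%), and 7 fell and 2 rose in NOD (4.7% and 1.88%). Col9a1, Col6a3, Col1a1, Col1a2 and Col8a1 fell and Col14a1 rose in all 3. The largest falls were Col6a3 (-1.87) and Col9a1 (-1.60) in B6, Col9a1 (-1.82) and Col6a3 (-1.32) in BALB, and Col5a2 (-2.02) and Col9a1 (-1.56) in NOD. In B6, Col4a4 also fell, by 1.28 (adjusted p = 0.0345), a call lost on leaving out any 1 of the 6 B6 mice. Without the 3 low-gap B6 arrays, which leaves 1 KO and 2 WT mice, only Col6a3 and Col9a1 were called in B6 (4.47% of all genes), at -1.90 and -1.82. Without B6 WT mouse 1 as well the same 2 genes were called (3.81% of all genes), at -1.55 and -1.70. The lone mice are then assumed to vary like those of the other groups. The rise of Col14a1 was not called in B6 without WT mouse 2, nor in NOD without KO mouse 1 or 2 or WT mouse 2 or 3. Without BALB KO mouse 1, 7 genes were called in BALB. With same-numbered mice as a block the count was 20 in BALB (22.5% of all genes) and 18 in NOD (16%). The sample codes form 4 runs of close numbers, and these hold 5 sets of KO and WT mice of the same strain. All 19 averaged falls were below 0 in each of the 5 sets, and of the 2 rises 1 was above 0 in each. The sets are parts of the mice that gave the calls, so these signs are no separate evidence. The share over all genes was not computed.

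No collagen gene passed the test of a strain difference in the KO effect (limma F test; 0 of 42, against 0.66% of all genes), and 4 had an unadjusted p under 0.05. The smallest was Col13a1, a transmembrane collagen of the neuromuscular junction (adjusted p = 0.0546). In BALB it read 5.59, 5.45, 5.55 and 5.46 in KO mice and 6.08, 5.79, 6.04 and 5.70 in WT mice. In NOD it read 6.20, 6.17 and 6.25 in KO mice and 5.63, 5.82 and 5.77 in WT mice. KO mice were thus below every WT mouse in BALB and above every WT mouse in NOD, with differences of -0.39 ± 0.11 (adjusted p = 0.0408) and 0.47 ± 0.13 (adjusted p = 0.0472). The NOD call was lost on leaving out any 1 of the 6 NOD mice. In B6 the KO mice read 5.55, 5.56 and 5.49 and the WT mice 5.84, 5.46 and 6.03, and the groups overlapped. Its strain difference passed without B6 WT mouse 2 or 3 or BALB WT mouse 4 (adjusted p = 0.0107, 0.0492 and 0.0353) and with the block (0.0157), and so did that of Col5a2 with the block (0.114 without it and 0.000618 with it).

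Among WT mice 6 collagen genes were called between BALB and B6, 2 between NOD and B6 and 3 between NOD and BALB. Between BALB and B6, 5 genes were lower in BALB (11.9% of the collagen genes, against 4.58% of all genes). The 1 higher gene stands beside 2.46% of all genes. Col5a2 averaged 7.80 ± 0.55 in BALB and 9.27 ± 0.16 in B6 (SD, n = 4 and 3), a difference of -1.47 ± 0.26 (limma adjusted p = 0.00202). Col22a1 and Col6a5 were lower by 0.73 and 0.44, and Col19a1 was higher in BALB at 8.94 ± 0.70, against 7.71 ± 0.19 in B6 (difference 1.23 ± 0.29, adjusted p = 0.0166). Between NOD and B6, Col6a5 was lower (-0.41) and Col6a2 higher (0.84) in NOD (6.3% and 2.4% of all genes). Between NOD and BALB, Col4a4 was lower in NOD at 6.57 ± 0.27, against 7.94 ± 0.61 in BALB (-1.37 ± 0.34, adjusted p = 0.0218), and Col1a2 and Col18a1 were higher by 0.70 and 0.37 (5.25% and 3.03% of all genes). Apart from that of Col5a2, each call between WT strains with a value given here was lost on leaving out at least 1 mouse: B6 WT mouse 2 (Col22a1, Col6a2), B6 WT mouse 3 (Col22a1, Col6a5, Col19a1, Col6a2), BALB WT mouse 1 (Col19a1, Col18a1), 2 (Col18a1) or 4 (Col4a4, Col18a1), or a NOD WT mouse (Col6a5 and Col6a2 against B6, Col4a4, Col1a2 and Col18a1 against BALB). With the run of sample codes as a block, none of the collagen genes differed between B6 and either other strain, and without the 3 low-gap B6 arrays 3 did for BALB and 1 for NOD. Without all 4 B6 arrays 1 did for each, Col6a5, and the Col5a2 difference between BALB and B6, -1.60, did not pass (adjusted p = 0.0529). Of the B6 mice, KO mouse 1 alone shared a run with BALB or NOD mice, so the fit with the run joins B6 to the other strains through 1 array.

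Genes that modify, bind or degrade collagen moved in both directions. Of 28 measured enzymes that modify, fold and process collagen, 2 fell and 4 rose (median 0.02), beside 16.6% and 9.7% of all genes. Pcolce2, an enhancer of procollagen cleavage, fell by 0.54 and Serpinh1, the collagen chaperone HSP47, by 0.53 (adjusted p = 0.0141 and 0.00105). The prolyl hydroxylases P3h1, P4ha1 and P4ha2 rose by 0.59, 0.44 and 0.34, and Loxl3, of the lysyl oxidase family that cross-links fibrils, by 0.43 (adjusted p = 6.06e-05, 0.0182, 0.00533 and 0.00381). A second P4ha1 probe set read 0.18 and was not called. Second probe sets of Serpinh1 and P3h1 were called too, at -0.99 and 0.46. For enzymes not called on the probe set used, another was called lower in Adamts3 and Pcolce (-0.81 and -0.52). In Plod1 and Mia3 another was called higher (0.23 and 0.22). Of 9 receptors, Mrc2 fell by 0.23 and Itga1 rose by 0.34, and a second probe set of each was not called. Ddr1 read -1.16 ± 0.44 and did not pass (adjusted p = 0.0695). Another Ddr1 probe set was called lower (-0.66, limma adjusted p = 0.0202) and its remaining ones were not called. For Ddr2, not called on the probe set used, a second was called lower (-0.25, limma adjusted p = 0.022).

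Of 11 collagen-degrading proteases and their inhibitors, 8 fell and 1 rose (median -0.56), beside 16.6% and 9.7% of all genes. Mmp13, a collagenase of cartilage and bone, averaged 4.68 ± 0.37, 4.66 ± 0.18 and 4.46 ± 0.30 in B6, BALB and NOD KO mice, against 8.20 ± 0.63, 7.15 ± 0.63 and 7.57 ± 0.18 in WT mice (SD). It was 8.22-fold lower in KO mice (-3.04 ± 0.18, adjusted p = 7.2e-10). The inhibitor Timp2 fell by 1.08 and Fap, a fibroblast surface protease, by 1.06, while the inhibitor Timp3 rose by 0.55 (adjusted p = 0.0056, 3.38e-06 and 0.0243). Timp2 has 5 other probe sets, which ranged from -0.87 to 0.24. Of 14 basement membrane partners, 3 fell and none rose (median -0.02), beside the same shares of all genes. Nid1, the nidogen that links laminin to type IV collagen, averaged 5.5 ± 0.31, 6.66 ± 0.21 and 7.46 ± 0.52 in B6, BALB and NOD KO mice, against 9.36 ± 0.36, 9.28 ± 0.23 and 9.62 ± 0.25 in WT mice. It fell by 2.88 (SE 0.13, adjusted p = 4.05e-11), but its 2 other probe sets read -0.15 and -0.07 and were not called. The laminin chains Lama2 and Lamb3 fell by 1.01 and 0.59. Over all 4 lists 14 of 62 measured genes fell (22.6%, against 16.6% of all genes) and 6 rose (9.68%, against 9.7%). With same-numbered mice as a block 31 were called (42.9% of all genes). The fits without the 3 low-gap or all 4 B6 arrays leave 1 mouse in a B6 group. Their list counts are not given.

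**Figure D4:**
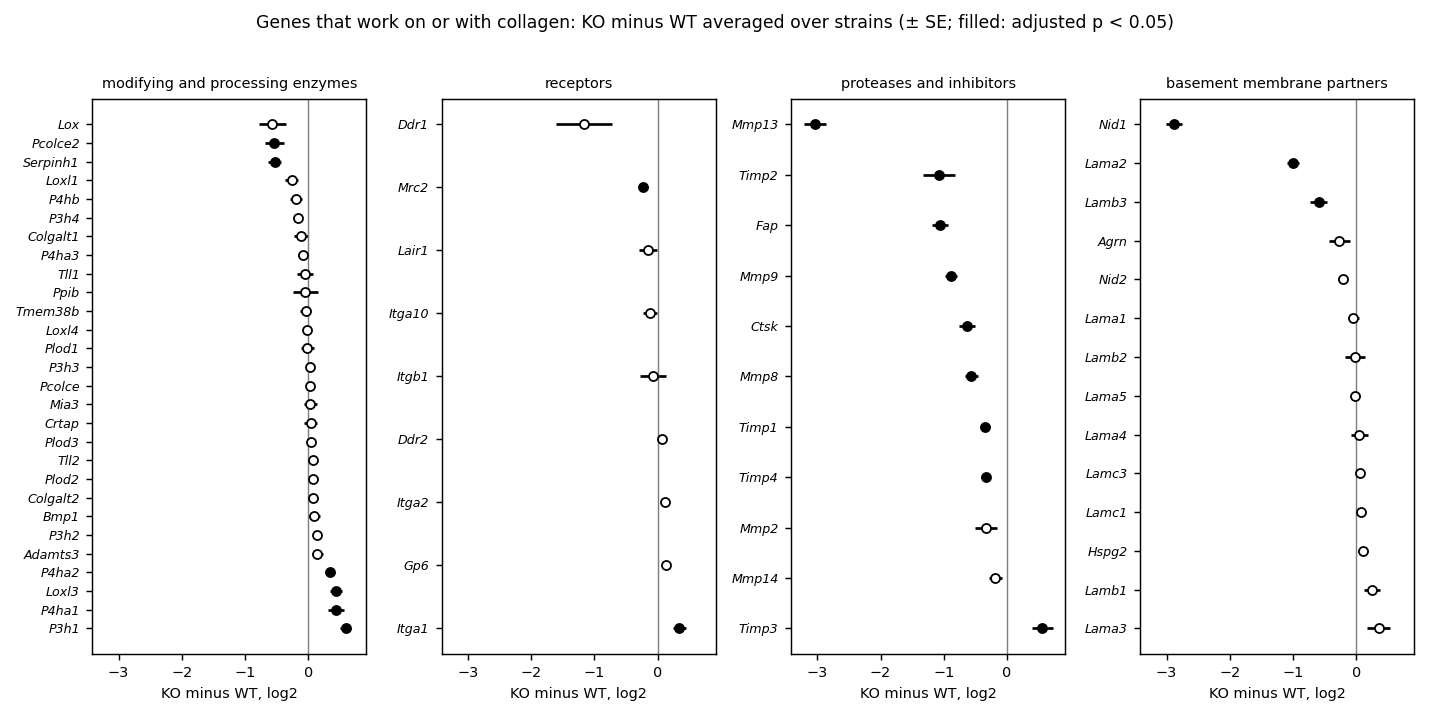
Averaged KO minus WT difference (log2 intensity, bars are SE) of genes that modify, bind, degrade or lie beside collagen, in 4 panels. Filled circles had an adjusted p under 0.05. On the probe sets shown, the brightest of each gene, Mmp13 at -3.04 and Nid1 at -2.88 lie far below the rest, and most of the enzymes lie near 0.

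Marker genes of cell types that make collagen moved in part beside these changes. Of 11 measured fibroblast markers 3 fell (Mfap5, Fn1 and Pdgfrb, by 0.69, 0.54 and 0.53) and 3 rose (Dcn, Lum and Pdgfra, by 1.53, 0.75 and 0.20). Other probe sets of Mfap5 and Dcn were called in the same direction, and those of Fn1, Pdgfrb and Pdgfra were not called. Fbln1 was not called on the probe set used, while its others fell by 0.72 and 0.35 (adjusted p = 1.36e-06 and 0.0354). The summed intensity of the 11 markers was 12.65 to 13.20 in KO mice and 11.87 to 13.38 in WT mice on the log2 scale. Of 8 chondrocyte markers 5 fell, among them Cilp by 3.87, Hapln1 by 1.89 and Comp by 1.59, while the defining markers Acan and Sox9 read -0.18 and 0.15 and were not called. Their summed intensity was 9.70 to 9.89, 9.49 to 10.17 and 11.48 to 12.02 in B6, BALB and NOD KO mice, against 11.61 to 12.12, 11.14 to 11.83 and 11.93 to 12.24 in WT mice. Cnmd, the chondromodulin gene, is counted among the 5 falls and averaged 8.17, 7.78 and 11.46 in B6, BALB and NOD KO mice, against 9.47, 9.08 and 10.91 in WT mice, so it was higher in KO mice of NOD. Matn3 was not called on the probe set used, while a second fell by 1.06 (adjusted p = 4.63e-05). Of 7 pericyte and smooth muscle markers 2 fell (Acta2 and Cnn1, by 1.0 and 0.47) and 2 rose (Cspg4 and Des, by 1.35 and 0.47), and of 8 endothelial markers Cd34 fell by 2.11 and Pecam1 rose by 0.21. Other probe sets of Acta2 and Des were not called, and a second Cspg4 probe set rose by 0.31. Among the haematopoietic markers 2 of 10 fell, Adgre1 and Cd3g, and among 8 cortical epithelial markers 1 fell and 2 rose. The counts of all these marker lists stand beside 16.6% of all genes called lower and 9.7% called higher. In the medullary list Krt5 and Krt14 fell by 0.69 and 0.44 and Cd80, Aire and H2-Ab1 rose. The part of these markers in the collagen results was not tested.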

How the data were processed

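RNA levels were read on mouse Affymetrix arrays, 1 per mouse. The RNA came from a Trizol extraction, went through repeated linear amplification (MessageAmp), which can favour the 3' ends of transcripts, and was labelled with biotin, per the labels' protocols. The deposited intensities are linear, 1 per probe set and array, and were made by the authors with RMA, per the submitters' processing notes. The version, the settings and the set of arrays normalized together were not stated. RMA as a rule includes background correction and normalization between arrays, so array-wide shifts may have been evened out.

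Log2 values of 45037 probe sets (64 control probe sets left out) were fitted with 6 group means in limma 3.58.1 under R 4.3.3 (lmFit, eBayes; 14 degrees of freedom for the residual), with Benjamini-Hochberg adjustment over all probe sets and a threshold of 0.05. The averaged effect is the mean of 3 strain contrasts, and strain differences of it were tested with an F test. Of the probe sets 34945 had 1 symbol, 932 several and 9160 were not listed. The 42 members have 82 probe sets: 15 genes have 1, and 27 have more. Of 40 other probe sets, 23 belong to called genes, of which 12 were called too, all with the same sign, and 11 were not, 4 of them with the opposite sign. Folds at low intensities are understated if background remains. The number of arrays limits the precision.

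The members, classes and gene lists were chosen with earlier results of these data known. The lists hold 133 entries, of which 125 were measured. The text names up to 10 falls and 6 rises by size for the averaged effect, up to 4 falls and 3 rises per strain, the largest differences between WT strains, all type IV chains, and up to 3 genes per list. Further collagens and list genes were added with values in view so that each class or list is accounted for. For mice of the same number, the deviations from the group means were correlated. The r was 0.46 to 0.66 in the 4 BALB pairs and 0.31 to 0.67 in the 3 NOD pairs, which were taken as pairs. In B6 it was 0.78, 0.72 and -0.13, and those mice were not taken as pairs. The fit with the block used the B6 numbers all the same, so its averaged results rest partly on them. Alternatives covered scaling, filters, variance models, array weights, blocks, the probe sets used and leaving out each mouse. The fit was tested on simulated data. Promoter sequences are from RefSeq (GRCm38.p6).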

Additional observations from a re-analysis of the deposited data

Results flagged for a closer look

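BALB is the only strain with 4 mice a group. In 36 sets of 4 BALB KO or 4 BALB WT mice, 1 for each collagen gene named for a difference and each genotype, 2 held a mouse far from the other 3, and chance alone gives about 1 set in 20. Col5a2 read 6.78 in BALB KO mouse 4, below the 7.52 to 7.64 of the other 3 KO mice, and the WT mouse of the same number was also the lowest of its group at 7.09. Col4a1 read 8.86 in BALB KO mouse 1, below the 9.57 to 9.66 of the other 3 KO mice.

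Col13a1 was lower in every BALB KO mouse and higher in every NOD KO mouse than in the WT mice of the same strain, with a strain difference at an adjusted p of 0.0546 in limma's F test. What set these values apart was not tested.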

How the results depend on the processing

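On leaving out any 1 mouse 20 to 21 collagen genes were called averaged, with 7 fibrillar, 3 type IV and 10 to 11 other collagens, and none of the 12 named averaged effects lost its call over 371 values. Over all 38 named effects and 1200 values, 78 lost the call and 0 changed sign. With 1 mouse left out the strain counts ran from 10 to 15 in B6, 7 to 13 in BALB (7 without KO mouse 1) and 6 to 11 in NOD, the strain difference from 0 to 1, the WT comparisons from 3 to 6 (BALB and B6), 0 to 5 (NOD and B6) and 1 to 4 (NOD and BALB), the pathway lists from 17 to 22 and the partner pairs from 7 to 8. Array weights gave 22 in B6, 18 in NOD, 2 for the strain difference, 7 for NOD and B6, 6 for NOD and BALB and 5 type IV chains (3 lower and 2 higher). Averaged they gave 27 collagen genes (21 lower and 6 higher, against 19 and 2) and 29 list genes (18 and 11). Of all genes, 23.2% were lower and 19% higher in that averaged fit, and shares for its other counts were not computed. The replicate block gave 20 in BALB (22.5% of all genes), 18 in NOD (16%), 2 for the strain difference and 31 in the lists (42.9%). As a random block it gave 4 for NOD and B6 WT mice. In B6, where the numbers were not taken as pairs, the replicate block moved the count to 21 (27.6% of all genes). Averaged it gave 26 (22 lower and 4 higher), against 24.7% of all genes lower and 18.1% higher. It gave 8 partner pairs. Each collagen gene called between KO and WT mice without the block was called with it. The mean of all probe sets gave 15 in NOD, 2 for the strain difference, 9 for NOD and B6 and 12 partner pairs. Shares of all genes were not computed for that setting. Quantile normalization, adding 16 before the log, a trended robust variance and leaving out the 3 or 4 B6 arrays each gave 1 for the strain difference (Col13a1). Adding 16, or fitting only the strains compared, gave 4 for NOD and B6, and fitting only BALB gave 6 there. Without the 3 low-gap B6 arrays the counts were 2 in B6, 3 for BALB and B6 and 1 for NOD and B6, without B6 WT mouse 1 as well 2, 1 and 1, and with the code run as a block 0 for both WT comparisons with B6. Those with fewer arrays or genes in the fit differ by construction, and for the rest the cause was not tested. A filter at a mean log2 of 6 kept 31 of the 42 genes. The settings without the 3 or 4 B6 arrays and with the code run, and the partner pairs with their block, were chosen after seeing the data.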
